A study of Mus musculus with 24 samples.

Results

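Insulin signalling from the receptor to AKT and FOXO was followed through 9 genes, Insr, Irs1, Irs2, Pik3r1, Akt1, Akt2, Foxo1, Foxo3 and Tbc1d4, out of 37041 genes in the tables. The members were taken by gene symbol, each was found once in all 24 libraries, and none of their values was 0. RNA sequencing had been run on 8 groups of 3 libraries. Of these, 6 groups were C2C12 cells, an established line of mouse myoblasts, either controls or made to express NFIA, which belongs to the nuclear factor I family of DNA-binding proteins. Each kind of cell had a day 0 group, an untreated day 7 group and a day 7 group exposed for 4 h to 10 µM forskolin, an activator of adenylyl cyclase that raises cAMP. The other 6 libraries came from brown adipose tissue of neonatal mice, 3 labelled wild-type and 3 labelled NFIA-KO. The labels give no strain, sex or exact age of the mice, no control vector and no culture medium, do not say how NFIA was introduced, and nothing says whether libraries of a group came from separate cultures, clones or animals. P-values therefore measure the spread between these libraries, which may be technical.

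Insulin binding activates the receptor tyrosine kinase encoded by Insr, which phosphorylates the docking proteins IRS1 and IRS2. These recruit the PI3-kinase, whose p85alpha regulatory subunit is the product of Pik3r1, and the lipid made by the kinase brings AKT1 and AKT2 to the membrane to be activated. Active AKT phosphorylates FOXO1 and FOXO3, which keeps these transcription factors out of the nucleus, and AS160, the product of Tbc1d4, which releases the glucose transporter GLUT4 to the cell surface. In brown fat this route drives glucose uptake and lipid synthesis, and AKT2 is the form best known for insulin action in fat and muscle. The RNA values below say nothing of phosphorylation.

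Values are FPKM, a unit that corrects fragment counts for gene length and sequencing depth, so levels are per length and can be set side by side between genes. The number of reads behind each library is not given, so the counting error of a value is unknown. Nfia itself measured 0.26 to 1.17 FPKM in control cells at day 0 and 1252 to 1283 in NFIA-expressing cells, 0.81 to 2.23 against 3189 to 3585 at day 7, and 1.32 to 1.82 against 9232 to 10448 with forskolin. Its level in the NFIA-expressing cells was thus itself 2.95 times higher with forskolin than without. In tissue Nfia was 24.3, 32.8 and 32.6 FPKM in wild-type libraries and 44.6, 40.1 and 39.4 in those labelled NFIA-KO (log2 fold change 0.47 ± 0.15, adjusted p = 0.097), so it was not lower there. A gene-level value can hold exons outside a deletion, so it does not check the label, and directions in tissue are those of the libraries labelled NFIA-KO. The 6 skeletal muscle markers summed to 8.51 to 9.07 FPKM in control cells at day 0 and to 4602 to 4737 at day 7, against 1.19 to 1.58 and 761.5 to 925 in NFIA-expressing cells. The 5 adipocyte markers summed to 3.31 to 8.66 FPKM in control cells at day 7 and to 22243 to 24412 in NFIA-expressing cells. The 4 smooth muscle markers summed to 1114 to 1233 FPKM in control cells and 225 to 281 in NFIA-expressing cells at day 7, and to 576 to 707 against 375 to 392 at day 0. The 5 brown adipocyte markers summed to 64.7 to 124 FPKM against 274 to 509 at day 7, mostly Cox8b (50.5 to 111 against 222 to 449). Cidea and Elovl3 were higher too, Ucp1 was 0 in the controls and at most 0.13 with NFIA, and Dio2 was lower with NFIA (12.4 to 14.0 against 2.04 to 2.78). The 4 immune markers found summed to 1.43 to 2.03 against 11.2 to 14.1, nearly all of it Cd68 (1.25 to 1.89 against 11.1 to 14.0). Csf1r was lower with NFIA (0.14 to 0.21 against 0.02 to 0.07), Ptprc was at most 0.01 and Cd3e was 0 in both. Endothelial, erythroid, and nerve and glia markers summed to at most 1.44, 3.44 and 3.96 FPKM in any C2C12 library, and immune markers to at most 24.4. At day 7 the nerve and glia sum was 0.68 to 1.14 in control and 2.52 to 3.19 in NFIA-expressing cells. S100b of that list was 0.05 to 0.1 against 1.57 to 2.39. The sums of skeletal and smooth muscle, adipocyte, brown adipocyte, immune, and nerve and glia markers thus all moved with NFIA at day 7. Dio2, Csf1r and the smooth muscle marker Myh11 (0.02 to 0.03 FPKM in control against 0.71 to 0.86 in NFIA-expressing cells) went against the sum of their list. The part of these cell types in the differences of the members was not tested. In bulk RNA, fewer cells of a type and less RNA per cell cannot be told apart.

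At day 7 all 9 members differed between NFIA-expressing and control cells, 8 higher and Akt1 lower, where 55.5% of all 14351 genes tested were called at an adjusted p under 0.05 (26.1% higher and 29.4% lower). Tbc1d4, Pik3r1 and Irs2 rose most, by log2 fold changes of 3.03, 2.15 and 2.05. All log2 fold changes are on the scale of log2(FPKM + 1), which understates low genes. Ratios within a library and folds of mean FPKM are of plain FPKM. The median over the 9 members was 1.06, against -0.03 over all genes tested. The members were chosen with earlier results of these data known, so such counts and medians are a description and no test of the pathway. With forskolin the same 8 of 9 were higher and Akt1 was lower, where 61.6% of genes were called (28.7% higher and 32.9% lower), and Irs2 reached 5.18. At day 0, 5 of 9 were called, where 21.2% of genes were (12.1% higher and 9.07% lower). Irs1 was lower in the NFIA-expressing cells then, and Irs2, Foxo1, Foxo3 and Tbc1d4 were higher. The count was 3 without control replicate 3 or without NFIA replicate 1 or 3. The comparisons at the 3 conditions use different libraries, and they are set side by side in the plot of NFIA effects.

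**Figure D1:**
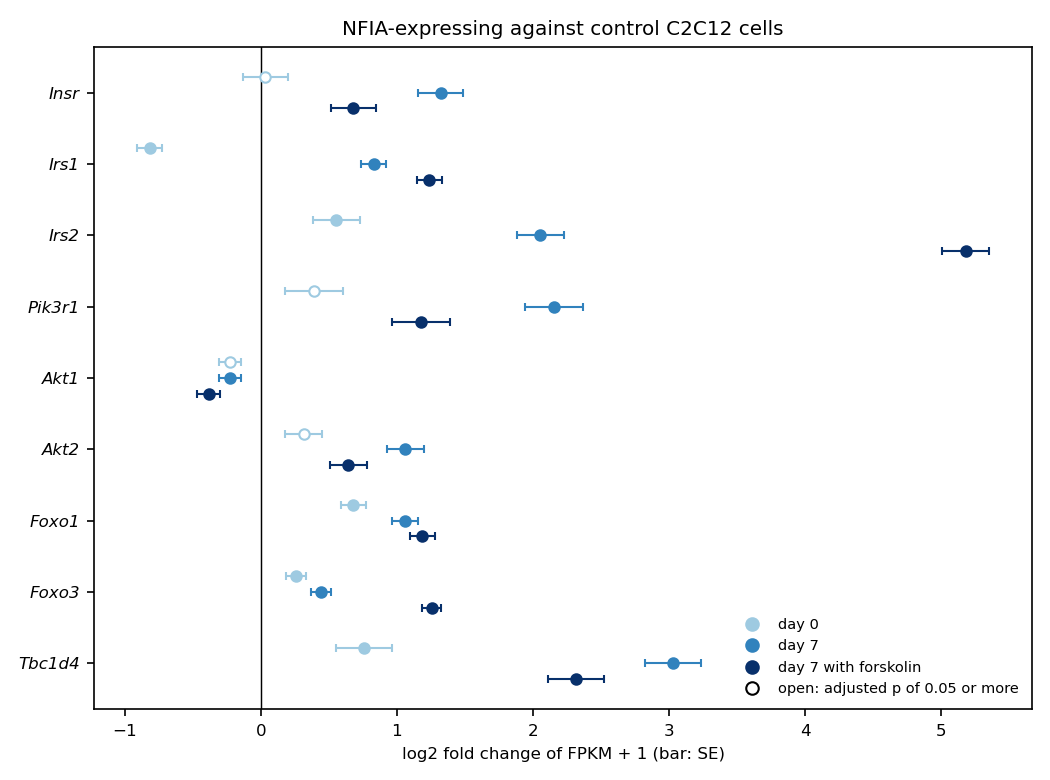
Log2 fold change of FPKM + 1 between NFIA-expressing and control C2C12 cells for each of the 9 genes, at day 0, day 7 and day 7 with forskolin (points; bars are the standard error of the fit to 18 libraries, 3 per group; open points have an adjusted p of 0.05 or more). Irs2 with forskolin stands furthest to the right at 5.18, Irs1 lies left of 0 at day 0 (-0.82) and right of it at day 7 (0.83), and the 3 points of Akt1 lie left of 0.

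The column headers of the tables carry an earlier date in replicate 1 of each C2C12 group and a later one in replicates 2 and 3, and what the date stands for is not given. Differences within the earlier date (1 library per group, no test) and within the later date (2 per group) stand beside some results below. They come from the libraries on which the members were called and are no independent check of direction. With the header date as a term in the fit, an alternative added after the data were seen, 0 of the called members lost the call and 10 values that had missed the threshold passed it, each named beside its result. All tissue tables carry the earlier date, so the date does not separate wild-type from NFIA-KO.

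Insr (ENSMUSG00000005534.8, mm9 chr8:3150922-3279617), the gene of the insulin receptor, was higher with NFIA at day 7 and not called at day 0 (0.03 ± 0.16, adjusted p = 0.93). In control cells its FPKM in replicates 1, 2 and 3 was 6.35, 5.68 and 4.34 at day 0, 6.34, 5.16 and 4.24 at day 7 and 6.63, 4.36 and 6.5 with forskolin. With NFIA it was 6.17, 5.3 and 5.23 at day 0, 16.5, 14.2 and 12.9 at day 7 and 11.2, 9.51 and 8.82 with forskolin. The control groups and the NFIA-expressing cells at day 0 all overlap, and every NFIA library at day 7 lies above every control library. Insr rose with NFIA at day 7 (log2 fold change 1.32 ± 0.16, adjusted p = 5.2e-06) and with forskolin (log2 fold change 0.68 ± 0.16, adjusted p = 0.0021), and the test of the difference between the 2 gave -0.64 ± 0.23 (adjusted p = 0.066). That difference was called with the header date as a term (adjusted p = 0.0056), without control day 7 replicate 1 (-0.77, 0.036) and without control forskolin replicate 2 (-0.81, 0.019). The change from day 0 to day 7 was 1.24 ± 0.16 in NFIA-expressing cells (adjusted p = 1.1e-05) and -0.05 ± 0.16 in control cells, and the 2 differed by an interaction of 1.29 ± 0.23 (adjusted p = 0.00030). Forskolin lowered Insr in NFIA-expressing cells (log2 fold change -0.52 ± 0.16, adjusted p = 0.025). That call was lost without NFIA day 7 replicate 1 or 2, or NFIA forskolin replicate 2 or 3 (adjusted p = 0.091, 0.056, 0.066 and 0.088), and also with quantile normalization (0.088) or median-of-ratios rescaling (0.061). Over the 8 groups Insr was highest in tissue labelled NFIA-KO, followed by wild-type tissue, NFIA day 7 and NFIA forskolin, and the libraries of wild-type tissue and NFIA day 7 overlap in that order.

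**Figure D2:**
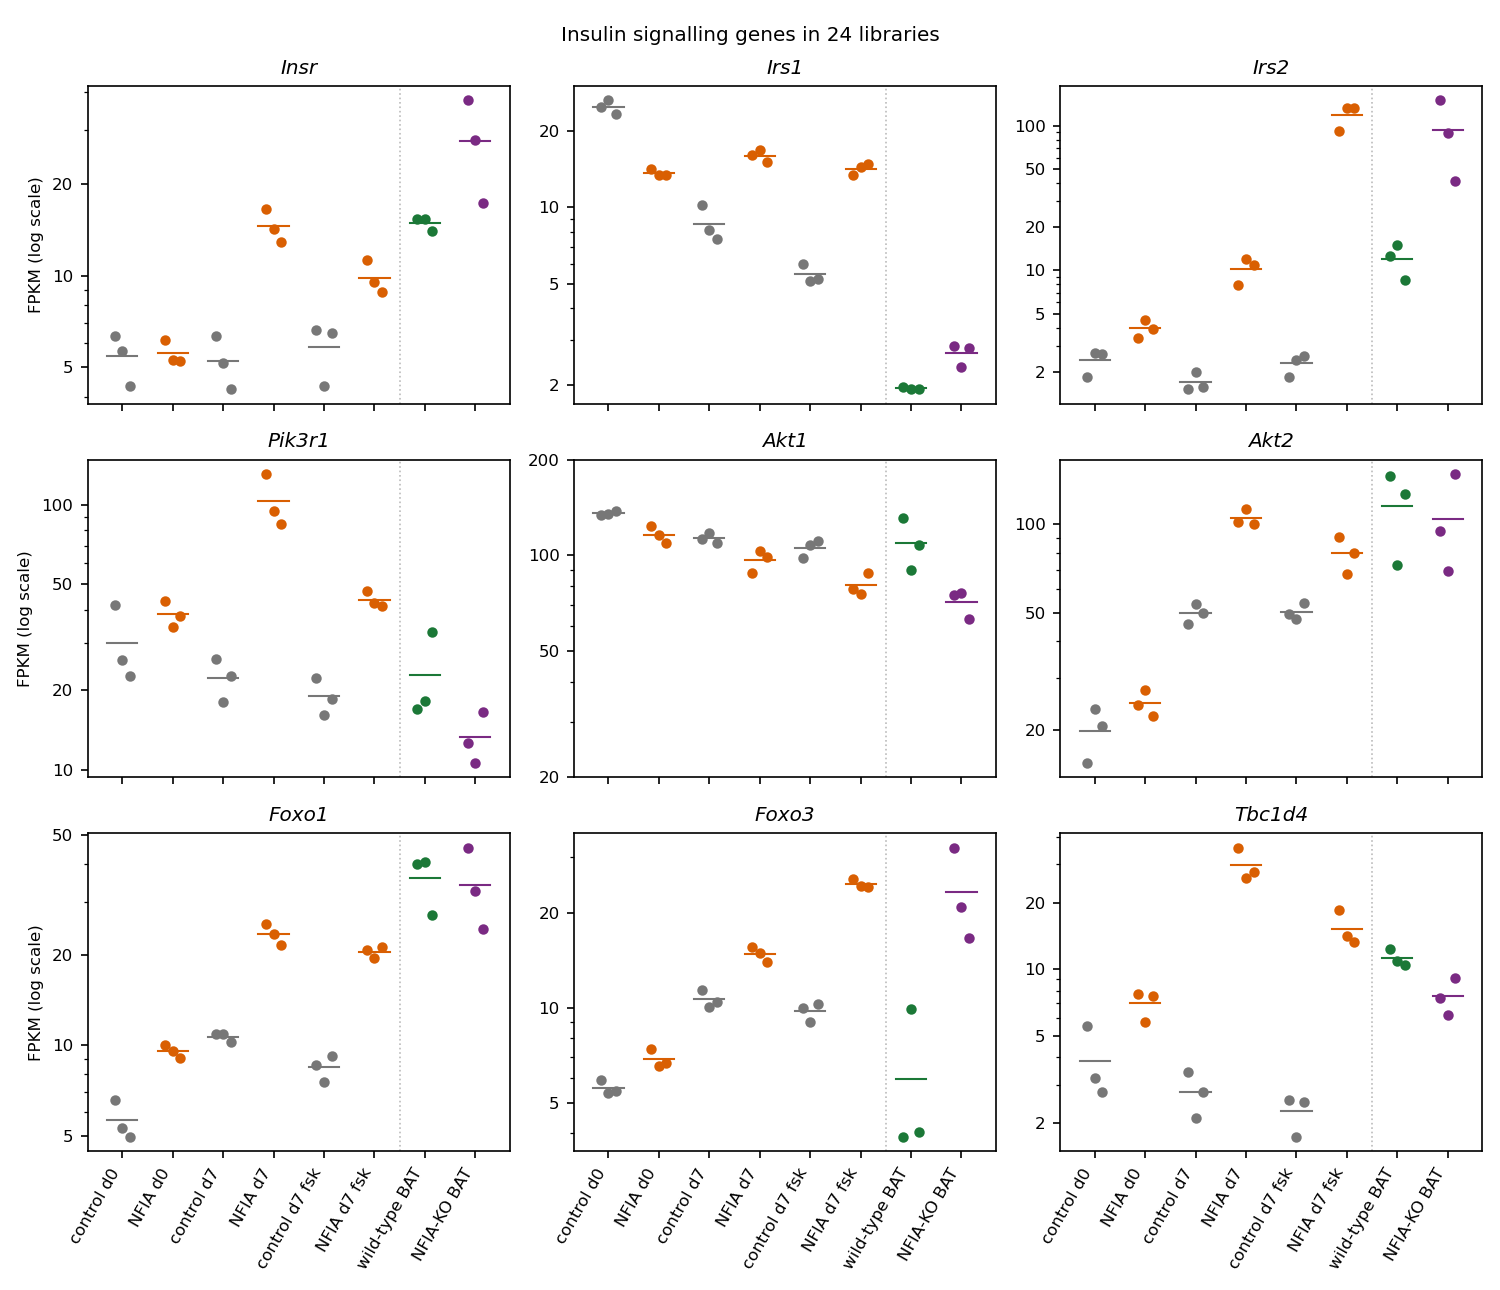
FPKM of each of the 9 genes in all 24 libraries (log axis; dots are replicates 1, 2 and 3 from left to right, lines are group means; d0 and d7 are days 0 and 7, fsk is forskolin, BAT is brown adipose tissue; the dotted line parts cells from tissue). Irs2 spans the widest range, from a group mean of 1.69 in control cells at day 7 to 119 in NFIA-expressing cells with forskolin, and Akt1 the narrowest.

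Irs1 and Irs2 encode the docking proteins through which the receptor acts. Irs1 (ENSMUSG00000055980.2, mm9 chr1:82229676-82287991) was the more abundant at every stage of the control cells. Its FPKM there was 24.9, 26.3 and 23.3 at day 0, 10.2, 8.14 and 7.5 at day 7 and 5.99, 5.13 and 5.2 with forskolin, and no library of one stage overlaps with another. Irs1 fell from day 0 to day 7 (log2 fold change -1.44 ± 0.09, adjusted p = 8.0e-09). It was the sole member called with forskolin in control cells (log2 fold change -0.57 ± 0.09, adjusted p = 0.0019), where 3.97% of all genes were called (1.92% higher and 2.06% lower). The forskolin call was lost when only the 2 groups compared were fitted (adjusted p = 0.097).

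In NFIA-expressing cells Irs1 was 14.2, 13.4 and 13.4 FPKM at day 0, 15.99, 16.8 and 15.1 at day 7 and 13.4, 14.4 and 14.8 with forskolin, a far narrower range. It was lower than in control cells at day 0 (log2 fold change -0.82 ± 0.09, adjusted p = 9.6e-06) and higher at day 7 (log2 fold change 0.83 ± 0.09, adjusted p = 1.9e-06) and with forskolin (log2 fold change 1.24 ± 0.09, adjusted p = 1.7e-08), with no overlap of libraries at any of the 3. Within the earlier and the later header date the differences were -0.77 and -0.84 at day 0 and 0.60 and 0.94 at day 7. From day 0 to day 7 Irs1 changed by 0.21 ± 0.09 in these cells (adjusted p = 0.067, not called, but 0.024 in the numbered libraries alone and 0.036 with the header date as a term), and the difference from the control time course was 1.65 ± 0.13 (adjusted p = 7.9e-08). Over the 8 groups Irs1 ran from control day 0 through NFIA day 7, NFIA forskolin, NFIA day 0, control day 7 and control forskolin to NFIA-KO and wild-type tissue, and the sole neighbours that overlap are NFIA forskolin and NFIA day 0.

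The Irs1 values carry an uncertainty of counting. The tables give the same locus to Gm9747, a gene model that GENCODE M21 places within the Irs1 locus on the opposite strand. The kit marks strand, but whether the counting used it is not stated, so fragments of the 2 entries cannot be told apart here. Gm9747 measured 11.1 to 26.6 FPKM in control cells at day 0, 6.50 to 9.30 in NFIA-expressing cells at day 0, 5.83 to 9.27 and 4.01 to 10.6 at day 7, and 3.42 to 4.73 in control cells with forskolin. It is listed at 0 in all 3 libraries of NFIA-expressing cells with forskolin. When the 2 entries were summed, an alternative added after the data were seen, Irs1 kept its calls for NFIA at day 0 (-0.92), day 7 (0.49) and with forskolin (0.54) and for both control contrasts. Forskolin then also lowered the sum in NFIA-expressing cells (-0.66, adjusted p = 0.0022), from 26.6, 20.8 and 22.1 FPKM to 13.4, 14.4 and 14.8, where Irs1 alone was not called (log2 fold change -0.16 ± 0.09, adjusted p = 0.22). The order of the 8 groups also changed in the sum. Control cells with forskolin had the lowest mean (9.45 FPKM), and NFIA-KO tissue (17.6) stood above control day 7 (16.2).

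Irs2 (ENSMUSG00000038894.6, mm9 chr8:10986980-11054541) was low in control cells, at 1.84, 2.68 and 2.66 FPKM at day 0, 1.51, 2.0 and 1.56 at day 7 and 1.84, 2.42 and 2.57 with forskolin, and these 3 groups overlap. The change from day 0 to day 7 in these cells was -0.33 ± 0.17 (adjusted p = 0.13). It was called with quantile normalization (-0.59, adjusted p = 0.0011), in the numbered libraries (-0.41, 0.0055) and with the header date as a term (0.0038). In NFIA-expressing cells it was 3.39, 4.57 and 3.95 at day 0, 7.98, 11.98 and 10.8 at day 7 and 91.4, 133 and 133 with forskolin, with every later group above the one before. Irs2 rose with NFIA at day 0 (log2 fold change 0.55 ± 0.17, adjusted p = 0.033), at day 7 (log2 fold change 2.05 ± 0.17, adjusted p = 7.2e-08) and with forskolin (log2 fold change 5.18 ± 0.17, adjusted p = 1.5e-12). The differences within the earlier and the later header date were 1.84 and 2.16 at day 7 and 5.02 and 5.26 with forskolin. The day 0 call was lost without control replicate 1, or without NFIA replicate 2 or 3 (adjusted p = 0.14, 0.14 and 0.082), with no expression filter (0.054) and with only the 2 groups fitted (0.055).

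Forskolin raised Irs2 in NFIA-expressing cells by 3.41 ± 0.17 (adjusted p = 1.4e-09), an 11.6-fold higher mean FPKM, and the change in control cells was 0.28 ± 0.17 (adjusted p = 0.63). The forskolin response differed between the 2 kinds of cell by 3.13 ± 0.24 (adjusted p = 4.1e-07). Nfia rose by 1.56 ± 0.20 under forskolin in the same libraries (adjusted p = 2.8e-05), and the part of that rise in the Irs2 response was not tested. Of the 8 groups, NFIA with forskolin and tissue labelled NFIA-KO were the highest in Irs2 and overlap, wild-type tissue and NFIA day 7 overlap below them, and the control cells were lowest.

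Forskolin raised Irs2 in NFIA-expressing cells, where Irs1 alone was not called and its sum with Gm9747 fell, and the 250 bases before the starts of these 2 docking genes are shown side by side. The windows are those of RefSeq on GRCm38.p6, a later build than the mm9 of the tables, and both genes lie on the minus strand. Capitals mark matches to motifs that were searched on both strands. CACGTG is an E-box, and TGTTTTG is the insulin response sequence to which FOXO proteins bind. The short form of the cAMP response element reads TGACG, or in reverse complement CGTCA. The last motif is the box CCAAT, which in reverse complement reads ATTGG.
Irs1 chr1:82291440-82291689: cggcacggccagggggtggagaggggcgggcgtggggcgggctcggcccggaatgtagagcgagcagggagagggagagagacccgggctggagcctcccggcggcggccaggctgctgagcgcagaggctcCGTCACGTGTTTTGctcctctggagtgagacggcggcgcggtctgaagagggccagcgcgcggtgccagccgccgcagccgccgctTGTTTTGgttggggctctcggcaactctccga
Irs2 chr8:11008930-11009179: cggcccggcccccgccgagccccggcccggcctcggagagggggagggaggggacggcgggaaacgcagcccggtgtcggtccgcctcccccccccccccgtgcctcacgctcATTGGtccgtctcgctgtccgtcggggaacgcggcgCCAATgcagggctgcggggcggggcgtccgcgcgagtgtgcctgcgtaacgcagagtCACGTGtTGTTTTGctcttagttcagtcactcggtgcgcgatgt
In Irs1 the E-box lies 115 to 110 bases before the start. It overlaps by 2 bases with the short cAMP response element at 118 to 114 and by 2 with an insulin response sequence at 111 to 105, and the latter recurs at 32 to 26. In Irs2 the E-box lies at 44 to 39 and the insulin response sequence follows at 37 to 31, 1 base apart. Over 32851 RefSeq windows of the same length, 6.02% hold CACGTG and 5.56% hold TGTTTTG. The short form TGACG, in 17.8% of windows, is present in Irs1 and not in Irs2, and CCAAT, in 33.8%, is present in Irs2 and not in Irs1. Another FOXO motif that was searched, GTAAACA, in 3.17% of windows, is in neither Irs1 nor Irs2 and has a match in Akt1. The full cAMP response element TGACGTCA, in 1.55% of windows, and the palindromic nuclear factor I site (TTGGC, then GCCAA after a gap of 5 bases), in 0.0365%, are not in the windows of any of the 8 members that have one (there is none for Insr in the table). A match is a description of the letters, and no match says only that these letters are not in this window.

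Pik3r1 (ENSMUSG00000041417.8, mm9 chr13:102450716-102538172), which encodes p85alpha and shorter forms of the PI3-kinase regulatory subunit, was 1 of the 3 most abundant members in NFIA-expressing cells at day 7, with Akt1 and Akt2. In control cells it was 41.8, 25.9 and 22.5 FPKM at day 0, 26.1, 18.1 and 22.5 at day 7 and 22.2, 16.1 and 18.5 with forskolin. Under NFIA it was 43.3, 34.5 and 37.97 at day 0, 130.2, 94.9 and 84.2 at day 7 and 47.2, 42.5 and 41.6 with forskolin. Replicate 1, of the earlier header date, is the highest in each of these 6 groups, and NFIA day 7 stands above all other groups, which overlap from each neighbour to the next, tissue included. Pik3r1 rose with NFIA at day 7 (log2 fold change 2.15 ± 0.21, adjusted p = 4.3e-07), with 2.27 and 2.09 within the dates, and with forskolin (log2 fold change 1.18 ± 0.21, adjusted p = 0.00019). At day 0 it was not called (log2 fold change 0.39 ± 0.21, adjusted p = 0.24), but it was without control replicate 1 (0.65, adjusted p = 0.026), in the numbered libraries (0.56, 0.0076) and with the header date as a term (0.019). From day 0 to day 7 in control cells it changed by -0.38 ± 0.21 (adjusted p = 0.15, and 0.012 with the header date as a term). Forskolin lowered it in NFIA-expressing cells (log2 fold change -1.20 ± 0.21, adjusted p = 0.00052), to 0.424 of the mean FPKM without, and in control cells the change was -0.22 ± 0.21 (adjusted p = 0.89). The 2 forskolin responses differed by -0.98 ± 0.30 (adjusted p = 0.032). That difference missed the threshold with quantile (0.065) or median-of-ratios (0.068) scaling and when low genes were kept (0.053). It was also lost without control day 7 replicate 2 or 3 (0.084 and 0.054), NFIA day 7 replicate 1 (0.078), control forskolin replicate 1 or 3 (0.074 and 0.058), or NFIA forskolin replicate 2 or 3 (0.063 and 0.066).

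Akt1 and Akt2 moved in opposite directions from day 0 to day 7. Akt1 (ENSMUSG00000001729.7, mm9 chr12:113892032-113913095), the most widely expressed of the AKT kinases, had the narrowest range of the 9 members, 1.90-fold between the highest and the lowest group mean. Its FPKM was 134, 135 and 138 in control cells at day 0, 113, 118 and 109 at day 7 and 97.99, 108 and 111 with forskolin. The NFIA-expressing cells had 124, 116 and 109 at day 0, 88.05, 103 and 99.2 at day 7 and 78.2, 75.8 and 87.9 with forskolin. Akt1 fell from day 0 to day 7 in control cells (log2 fold change -0.26 ± 0.08, adjusted p = 0.016) and in NFIA-expressing cells (log2 fold change -0.26 ± 0.08, adjusted p = 0.012), and the NFIA effect did not differ detectably between the days (-0.00 ± 0.11, adjusted p = 0.98). It was lower with NFIA at day 7 (log2 fold change -0.23 ± 0.08, adjusted p = 0.027) and with forskolin (log2 fold change -0.38 ± 0.08, adjusted p = 0.00076), and at day 0 the libraries do not overlap but the difference was not called (log2 fold change -0.22 ± 0.08, adjusted p = 0.066). It was called with quantile normalization (-0.35, adjusted p = 0.035), median-of-ratios rescaling (-0.26, 0.020), in the numbered libraries (-0.28, 0.021) and with the header date as a term (0.022).

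In the order of the 8 groups, control day 0 was highest in Akt1 and NFIA forskolin and NFIA-KO tissue, which overlap, were lowest, with the other 5 overlapping from neighbour to neighbour between them. The small Akt1 differences depended on single libraries. The NFIA effect at day 7 was not called without control replicate 1 or 2 or NFIA replicate 1 (adjusted p = 0.055, 0.094 and 0.13), in the numbered libraries alone (0.074) or with only the 2 groups fitted (0.076). The fall over time in control cells was lost without day 7 replicate 3 (0.058) or with only its 2 groups (0.068), and that in NFIA-expressing cells without day 0 replicate 1 (0.058), day 7 replicate 1 (0.065) or in the numbered libraries (0.094). Forskolin lowered Akt1 in NFIA-expressing cells (log2 fold change -0.26 ± 0.08, adjusted p = 0.023), a call lost without NFIA day 7 replicate 2 or 3 (0.10 and 0.077), forskolin replicate 1 or 2 (0.070 and 0.094) or with only the 2 groups (0.11).

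Akt2 (ENSMUSG00000004056.8, mm9 chr7:28376571-28425845) rose from day 0 to day 7 in both kinds of cell, and more with NFIA. In control cells it was 15.4, 23.5 and 20.6 FPKM at day 0, 45.9, 53.4 and 49.7 at day 7 and 49.6, 47.4 and 53.8 with forskolin. With NFIA it was 24.4, 27.2 and 22.4 at day 0, 102, 112 and 100.2 at day 7 and 90.7, 67.9 and 79.8 with forskolin. The groups of day 7 lie above those of day 0 without overlap, and the NFIA libraries at day 7 and with forskolin lie above all control libraries. Both tissue groups overlap with these NFIA groups at the top of the order, control forskolin and control day 7 overlap below them, and the day 0 groups overlap at the bottom. Akt2 rose from day 0 to day 7 by 1.30 ± 0.14 in control cells (adjusted p = 1.6e-06) and by 2.05 ± 0.14 in NFIA-expressing cells (adjusted p = 5.2e-09), and the rises differed by 0.75 ± 0.19 (adjusted p = 0.0051). It was higher with NFIA at day 7 (log2 fold change 1.06 ± 0.14, adjusted p = 7.6e-06) and with forskolin (log2 fold change 0.64 ± 0.14, adjusted p = 0.00077), and not called at day 0 (log2 fold change 0.31 ± 0.14, adjusted p = 0.13), except without control replicate 2 (0.44, adjusted p = 0.038). The forskolin responses of the 2 kinds of cell differed by -0.42 ± 0.19 (adjusted p = 0.15), and by -0.65 (0.034) with quantile normalization. Forskolin lowered it in NFIA-expressing cells (log2 fold change -0.40 ± 0.14, adjusted p = 0.034), but not without NFIA day 7 replicate 1, 2 or 3 (adjusted p = 0.057, 0.12 and 0.057), without forskolin replicate 2 or 3 (0.15 and 0.068), with only the 2 groups (0.057) or with no expression filter (0.0505).

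Foxo1 and Foxo3 encode the FOXO transcription factors that AKT keeps in the cytoplasm, and both rose from day 0 to day 7. Foxo1 (ENSMUSG00000044167.5, mm9 chr3:52072259-52154031) was 6.59, 5.31 and 4.96 FPKM in control cells at day 0, 10.9, 10.9 and 10.3 at day 7 and 8.58, 7.56 and 9.2 with forskolin. The NFIA-expressing cells measured 10.04, 9.56 and 9.06 at day 0, 25.3, 23.4 and 21.5 at day 7 and 20.7, 19.4 and 21.3 with forskolin. NFIA libraries lie above the control libraries of the same stage at all 3 stages, and Foxo1 was called each time (log2 fold change 0.68 ± 0.09, adjusted p = 6.6e-05 at day 0; 1.06 ± 0.09 and 1.19 ± 0.09 at day 7 without and with forskolin). Of the 8 groups, wild-type tissue, NFIA-KO tissue and NFIA day 7 were highest and overlap in that order, followed without overlap by NFIA forskolin and control day 7, then by NFIA day 0 and control forskolin, which overlap, and by control day 0. Over time it rose by 0.83 ± 0.09 in control and 1.21 ± 0.09 in NFIA-expressing cells. The interaction of 0.38 ± 0.13 had an adjusted p of 0.029. It was not called with a pseudocount of 0.1 (0.062) or in the numbered libraries (0.12), nor without control day 0 replicate 1 (0.064), NFIA day 0 replicate 2 or 3 (0.051 and 0.069), control day 7 replicate 3 (0.065) or NFIA day 7 replicate 1 or 2 (0.074 and 0.052). With forskolin Foxo1 changed by -0.31 ± 0.09 in control cells (adjusted p = 0.095) and by -0.18 ± 0.09 in NFIA-expressing cells (adjusted p = 0.16), neither called. The change in control cells was called with the header date as a term (adjusted p = 0.020).

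Foxo3 (ENSMUSG00000048756.4, mm9 chr10:41901647-41996561) behaved otherwise under forskolin. It was 5.9, 5.37 and 5.45 FPKM in control cells at day 0, 11.4, 10.1 and 10.4 at day 7 and 9.95, 9.0 and 10.3 with forskolin, and 7.41, 6.52 and 6.68 at day 0, 15.5, 14.9 and 13.9 at day 7 and 25.5, 24.3 and 24.1 with forskolin in NFIA-expressing cells. The control libraries with and without forskolin overlap, and the NFIA libraries with forskolin lie above every other C2C12 library. NFIA-KO tissue overlaps with them at the top of the 8 groups, followed by NFIA day 7, by both control day 7 groups, which overlap, and by NFIA day 0, wild-type tissue and control day 0, which overlap. Forskolin raised Foxo3 in NFIA-expressing cells (log2 fold change 0.70 ± 0.07, adjusted p = 2.9e-06), not detectably in control cells (log2 fold change -0.12 ± 0.07, adjusted p = 0.64), and the responses differed by 0.81 ± 0.10 (adjusted p = 4.2e-05). The rise within the earlier and the later date was 0.68 and 0.71. Foxo3 rose from day 0 to day 7 by 0.82 ± 0.07 in control and 1.01 ± 0.07 in NFIA-expressing cells, and the difference between the 2 rises was not called (0.18 ± 0.10, adjusted p = 0.16, and 0.033 with the header date as a term). NFIA raised it at day 7 (log2 fold change 0.44 ± 0.07, adjusted p = 8.0e-05) and with forskolin (log2 fold change 1.25 ± 0.07, adjusted p = 6.7e-10). At day 0 it was higher too (log2 fold change 0.26 ± 0.07, adjusted p = 0.017), a call lost without control replicate 2 or 3 (adjusted p = 0.063 and 0.052), NFIA replicate 1 (0.080), with quantile normalization (0.13), median-of-ratios rescaling (0.16) or only the 2 groups (0.13).

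Tbc1d4 (ENSMUSG00000033083.9, mm9 chr14:101841577-102008408), whose product AS160 holds back GLUT4 vesicles until AKT phosphorylates it, had the largest NFIA effect of the members at day 7. In control cells it was 5.52, 3.21 and 2.79 FPKM at day 0, 3.43, 2.12 and 2.77 at day 7 and 2.55, 1.74 and 2.51 with forskolin. In NFIA-expressing cells it was 7.69, 5.78 and 7.58 at day 0, 35.6, 26.1 and 27.8 at day 7 and 18.5, 14.1 and 13.2 with forskolin. The lowest NFIA library at day 7 is above the highest library of any other group, tissue included. Below it the order was NFIA forskolin, wild-type tissue, then NFIA-KO tissue and NFIA day 0, which overlap, and the 3 control groups, which overlap. Tbc1d4 rose with NFIA at day 7 (log2 fold change 3.03 ± 0.21, adjusted p = 6.2e-09), a 10.7-fold higher mean, and with forskolin (log2 fold change 2.31 ± 0.21, adjusted p = 1.2e-07). From day 0 to day 7 it rose in NFIA-expressing cells (1.94 ± 0.21) and was not called in control cells (-0.33 ± 0.21, adjusted p = 0.20, and 0.034 with the header date as a term), a difference of 2.27 ± 0.29 (adjusted p = 1.3e-05). Forskolin lowered it in NFIA-expressing cells (log2 fold change -0.92 ± 0.21, adjusted p = 0.0031) and was not called in control cells (-0.20 ± 0.21, adjusted p = 0.90), and the test of the difference gave -0.72 ± 0.29 (adjusted p = 0.10). That difference was called in the numbered libraries (-0.78, adjusted p = 0.026) and with the header date as a term (0.0066). At day 0 Tbc1d4 was higher with NFIA (log2 fold change 0.76 ± 0.21, adjusted p = 0.015), with 0.41 and 0.93 in the earlier and the later date. The call was lost without control replicate 2 or 3 (adjusted p = 0.062 and 0.071), NFIA replicate 1 or 3 (0.057 and 0.059), or with only the 2 groups (0.077).

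From day 0 to day 7, 5 of 9 members changed in control cells, Akt2, Foxo1 and Foxo3 up and Irs1 and Akt1 down, where 48.9% of genes were called (24.9% higher and 23.9% lower). Quantile normalization shifts the median of all genes by -0.11 in that comparison and turns the split of calls from 3579 higher and 3434 lower to 3039 and 4405. In NFIA-expressing cells 8 of 9 changed, 7 up and Akt1 down, where 56.9% were called (27.5% higher and 29.4% lower). The NFIA effect differed between the days in 7 of 9 members, all towards higher at day 7, where 45.3% of genes were called (19.8% higher and 25.5% lower). With forskolin 1 of 9 was called in control cells. In NFIA-expressing cells 7 of 9 were called, where 32.6% of genes were called (15.7% higher and 16.9% lower). There Irs2 and Foxo3 went up and Insr, Pik3r1, Akt1, Akt2 and Tbc1d4 down. The count in NFIA-expressing cells was 4 without day 7 replicate 2 or forskolin replicate 2. The forskolin responses of the 2 kinds of cell differed in 4 of 9, higher in NFIA-expressing cells for Irs1, Irs2 and Foxo3 and lower for Pik3r1, where 20.1% of genes were called (10.5% higher and 9.61% lower). That count was 2 without control day 7 replicate 2, NFIA day 7 replicate 1, control forskolin replicate 3 or NFIA forskolin replicate 2 or 3. The Irs1 difference (0.41 ± 0.13, adjusted p = 0.040) was 0.06 (adjusted p = 0.90) when Gm9747 was added. It missed the threshold when low genes were kept (0.052), with quantile (0.078) or median-of-ratios (0.10) scaling, or when only its 4 groups were fitted (0.079). It was also lost without control day 7 replicate 1 or 2 (0.083 and 0.0503), NFIA day 7 replicate 1 or 3 (0.064 and 0.093), control forskolin replicate 2 or 3 (0.095 and 0.090), or NFIA forskolin replicate 2 or 3 (0.074 and 0.087). Irs2 and Foxo3 kept that call without any 1 library.

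**Figure D3:**
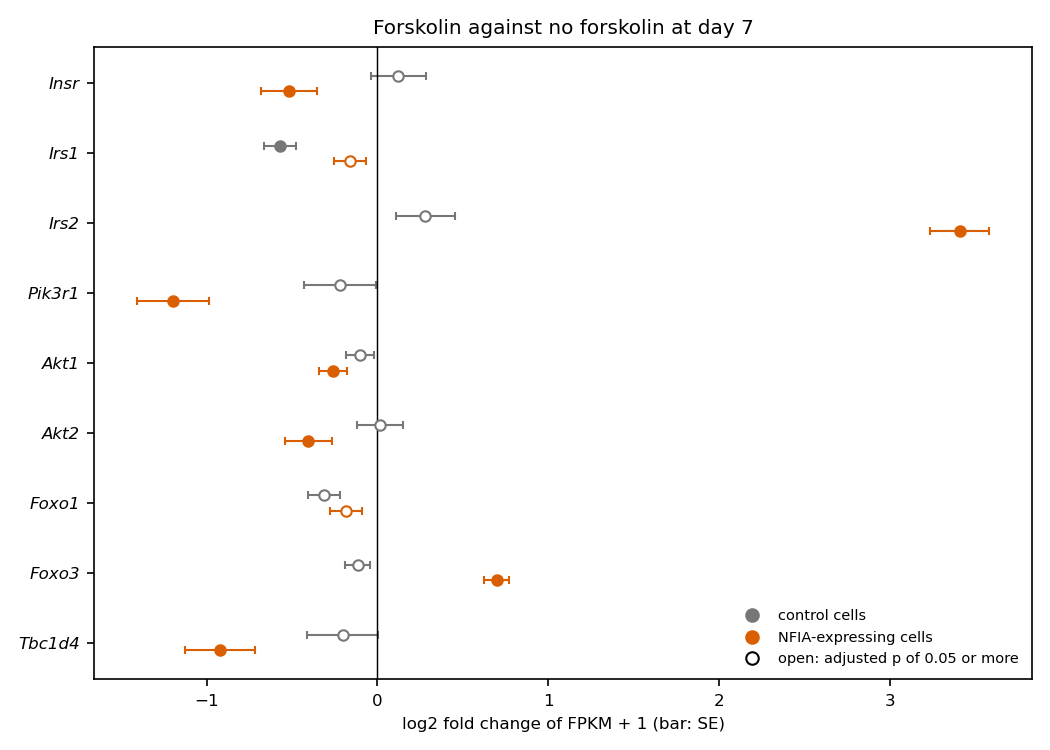
Log2 fold change of FPKM + 1 with 4 h of forskolin at day 7 for each of the 9 genes, in control and in NFIA-expressing C2C12 cells (points; bars are the standard error, 3 libraries per group; open points have an adjusted p of 0.05 or more). Irs2 (3.41) and Foxo3 (0.70) lie right of 0 in NFIA-expressing cells, with Pik3r1 furthest left (-1.20), and in control cells Irs1 (-0.57) is the one filled point.

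Ratios of related genes within a library, which are free of the scaling between libraries, show which form was the more abundant. The ratio of Irs2 to Irs1 in replicates 1, 2 and 3 was 0.074, 0.102 and 0.114 in control cells at day 0, 0.148, 0.246 and 0.208 at day 7 and 0.307, 0.472 and 0.494 with forskolin. In NFIA-expressing cells it was 0.239, 0.342 and 0.295 at day 0, 0.499, 0.714 and 0.715 at day 7 and 6.84, 9.25 and 8.96 with forskolin, so Irs1 was the more abundant form in every C2C12 library except the 3 with NFIA and forskolin. With Gm9747 added to Irs1 the geometric mean ratio was 0.439 at day 7 with NFIA and 8.28 with forskolin. In tissue the ratio was 6.45, 7.76 and 4.44 in wild-type libraries and 52.5, 37.5 and 14.9 in those labelled NFIA-KO, and with Gm9747 added the geometric means were 1.09 and 4.65.

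The ratio of Akt2 to Akt1 was 0.115, 0.175 and 0.149 at day 0 and 0.408, 0.455 and 0.454 at day 7 in control cells, without overlap. In NFIA-expressing cells the corresponding values were 0.197, 0.235 and 0.205 at day 0 and 1.16, 1.09 and 1.01 at day 7. Both forms thus stood at about equal FPKM at day 7. With forskolin the ratio was 0.506, 0.44 and 0.486 in control and 1.16, 0.895 and 0.908 in NFIA-expressing cells. In tissue it was 1.11, 0.811 and 1.18 in wild-type and 1.27, 0.91 and 2.34 in NFIA-KO libraries, which overlap. The ratio of Foxo3 to Foxo1 in control cells had geometric means of 0.998 at day 0, 0.995 at day 7 and 1.16 with forskolin. In NFIA-expressing cells it was 0.719 at day 0, 0.633 at day 7 and 1.2 with forskolin. The forskolin libraries of control and NFIA-expressing cells overlap in this ratio. In tissue it was 0.152 in wild-type and 0.674 in NFIA-KO libraries. All 24 tests of these ratios (3 ratios in 8 comparisons, exact permutation test, two-sided) have 3 libraries against 3 and cannot give a p below 0.10. That value was reached in 19 of them, those without overlap, with an adjusted p of 0.13, so none passes.

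**Figure D4:**
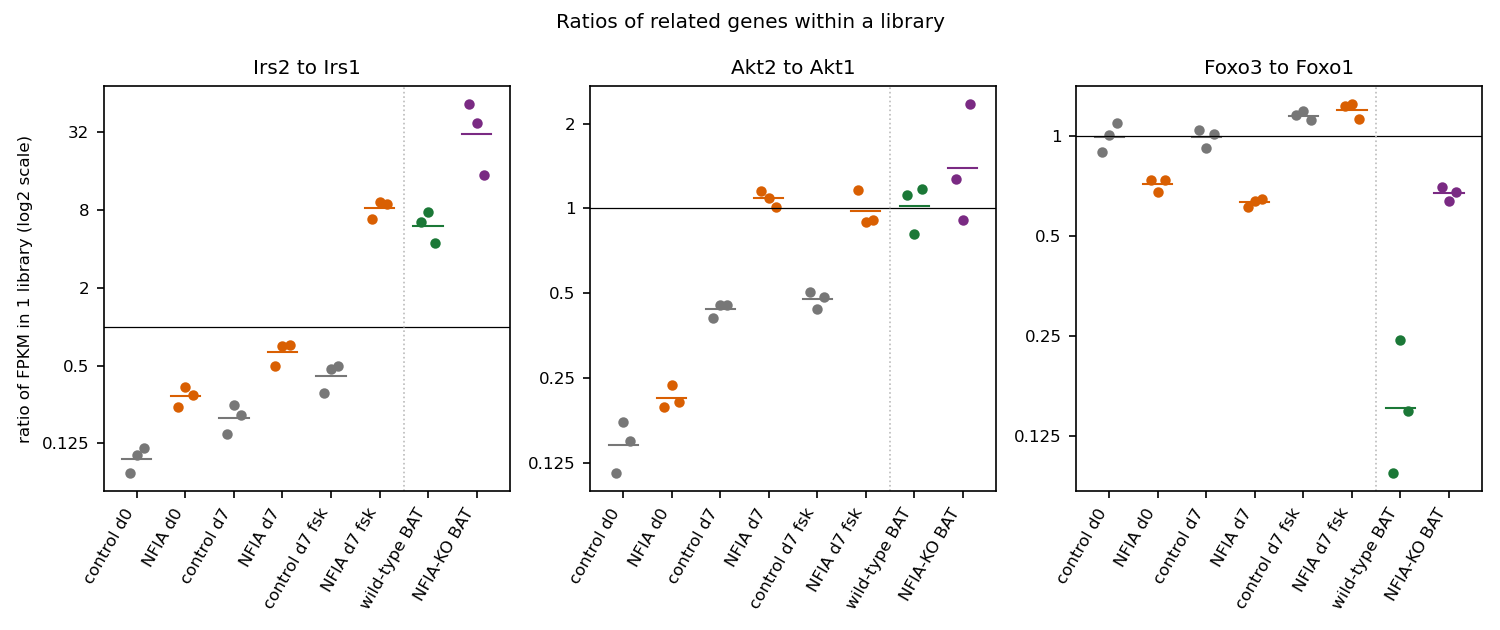
Ratio of FPKM between related genes in each of the 24 libraries (log2 axis; dots are replicates 1, 2 and 3 from left to right, lines are geometric means; the horizontal line marks a ratio of 1; fsk is forskolin, BAT is brown adipose tissue). Irs2 to Irs1 crosses 1 only in NFIA-expressing cells with forskolin and in tissue, Akt2 to Akt1 reaches about 1 in NFIA-expressing cells from day 7 on, and Foxo3 to Foxo1 is lowest in wild-type tissue, at 0.152.

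In brown adipose tissue 2 of 9 members differed between libraries labelled NFIA-KO and wild-type, where 7.14% of 13618 genes tested were called (3.59% higher and 3.55% lower). Of all genes 973 were called, and 19, 1361 and 53 without wild-type replicate 1, 2 or 3 and 148, 109 and 541 without NFIA-KO replicate 1, 2 or 3. Irs2 was 12.6, 14.97 and 8.53 FPKM in wild-type libraries and 149, 88.2 and 41.6 in those labelled NFIA-KO (log2 fold change 2.70 ± 0.44, adjusted p = 0.027), a mean of 12.05 ± 3.26 (SD, n = 3) against 92.9 ± 53.8. The groups do not overlap, and the 3 NFIA-KO libraries spread widely. Foxo3 was 3.9, 9.91 and 4.04 against 32.1, 20.9 and 16.6 FPKM (log2 fold change 1.85 ± 0.37, adjusted p = 0.038), with replicate 2 the highest of the wild-type libraries. Both calls were lost without wild-type replicate 1 (adjusted p = 0.12 for Irs2 and 0.16 for Foxo3), wild-type replicate 3 (0.084 and 0.11) or NFIA-KO replicate 2 (0.088 and 0.11), and with no expression filter (0.076 and 0.092). The call of Foxo3 was also lost without NFIA-KO replicate 1 (0.079).

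Skeletal muscle markers moved with the label in the same libraries. Their sum was 30.2, 23.9 and 75.7 FPKM in wild-type libraries and 1014, 161 and 534 in those labelled NFIA-KO, and 4 of the 5 tested were called higher. The 5 brown adipocyte markers summed to 9788 to 13566.5 FPKM in wild-type and 4652 to 5817 in NFIA-KO libraries, and 3 of 5 were called lower. None of the 5 general adipocyte markers was called, and Fabp4 is listed at 0 in 1 wild-type library. Of the nerve and glia markers 1 of 3 tested was lower, and none of the endothelial, erythroid, immune or smooth muscle markers was called. With the muscle marker level as a term in the fit, added after the data were seen, the Irs2 difference was 2.73 (adjusted p = 0.52) and that of Foxo3 1.81 (adjusted p = 0.55), and 1 gene of all was called.

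The other 7 members were not called in tissue. Insr was 15.3, 15.3 and 14.03 FPKM in wild-type and 37.5, 27.9 and 17.3 in NFIA-KO libraries (log2 fold change 0.78 ± 0.26, adjusted p = 0.10). Akt1 was 131, 89.7 and 108 against 74.9, 75.95 and 63.1 (log2 fold change -0.60 ± 0.16, adjusted p = 0.069), and Tbc1d4 12.3, 10.9 and 10.4 against 7.38, 6.2 and 9.09 (log2 fold change -0.53 ± 0.16, adjusted p = 0.089). Insr was called without NFIA-KO replicate 3 (adjusted p = 0.033) and Akt1 without wild-type replicate 2 (0.038). Pik3r1 was 16.9, 18.2 and 33.0 against 12.6, 10.6 and 16.5 (log2 fold change -0.69 ± 0.28, adjusted p = 0.15). Irs1 was 1.96, 1.93 and 1.92 against 2.84, 2.35 and 2.79 (log2 fold change 0.32 ± 0.13, adjusted p = 0.17), the 2 lowest of the 8 groups for Irs1 alone. With Gm9747 added it was 11.5, 12.7 and 8.62 against 16.6, 17.7 and 18.5 (adjusted p = 0.055), and the tissue groups were then not the 2 lowest. Akt2 (146, 72.8 and 126 against 94.9, 69.2 and 148) and Foxo1 (40.3, 40.7 and 27.1 against 45.4, 32.7 and 24.4) overlap, with adjusted p of 0.79 and 0.83.

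**Figure D5:**
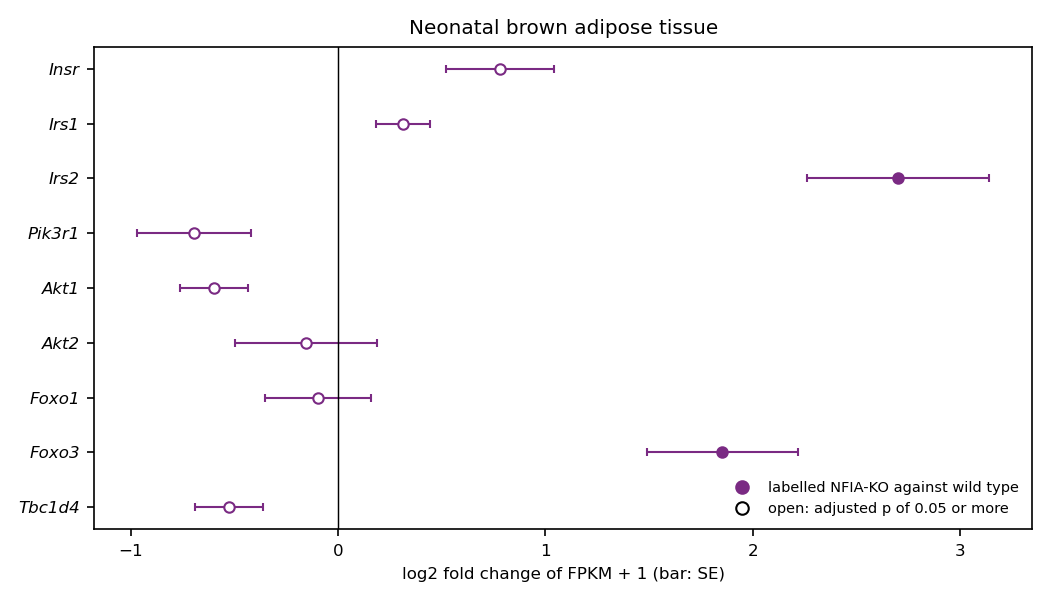
Log2 fold change of FPKM + 1 between brown adipose tissue labelled NFIA-KO and wild-type for each of the 9 genes (points; bars are the standard error, 3 libraries per group; open points have an adjusted p of 0.05 or more). Irs2 (2.70) and Foxo3 (1.85) are the filled points, and the bar of Akt2 and that of Foxo1 include 0.

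The genes whose values followed each member most closely over the 18 C2C12 libraries were ranked by Pearson's r of log2(FPKM + 1) among 10028 protein-coding genes with a mean of at least 5 FPKM in a group. The libraries fall into 6 groups, so r describes mostly the group means. Irs2 was followed by Irf2bp2 (r = 0.99), Sat1, the spermidine acetyltransferase, and Alpl, tissue-nonspecific alkaline phosphatase. Foxo3 was followed by Nnmt, nicotinamide N-methyltransferase (r = 0.98), the phosphatase gene Ppm1a and the Krüppel-like factor gene Klf9. Pik3r1 was followed by Idh1, cytosolic isocitrate dehydrogenase (r = 0.96), Rnf24 and Tbc1d4, another of the 9 members, and Tbc1d4 by Aco1, cytosolic aconitase (r = 0.98), Galntl2 and Rnf24. Akt2 was followed by Bcl2l13 (r = 0.98), Hsd11b1 and Colq, Foxo1 by Lonp2 (r = 0.97), Ano10 and Mtm1, Insr by Zhx3 (r = 0.97), 1110018G07Rik and Ralgapa2, and Irs1 by Akap12 (r = 0.94), Rbm45 and Pom121. Such genes are named for members whose highest and lowest C2C12 group means differ by at least 1 log2 unit, and those of Akt1 differ by 0.74.

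Around the 9 members, 58 further genes of the pathway were listed by role, of which 53 were tested in C2C12 cells. With NFIA at day 7, 33 of 53 were called (62.3%, against 55.5% of all genes), 15 higher and 18 lower, with a median of -0.10 against -0.03 over all genes. Of the docking and adaptor proteins 3 of 5 tested rose and 1 fell (80% called). Shc1, an adaptor gene, was 49.9, 52.1 and 52.99 FPKM in control and 154, 171 and 158 in NFIA-expressing cells (log2 fold change 1.62 ± 0.08, adjusted p = 2.8e-10), and Gab1 changed by -0.50. Of the other 5 PI3-kinase subunits none rose and 2 fell (40% called). The catalytic subunit gene Pik3ca was lower (log2 fold change -0.42 ± 0.16, adjusted p = 0.032), and so was the regulatory Pik3r3 (log2 fold change -0.38 ± 0.14, adjusted p = 0.037).

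Of the inhibitors and phosphatases, 2 of 9 tested rose and 2 fell at day 7 (44.4% called, below the 55.5% of all genes). Trib3, which encodes a pseudokinase that binds AKT, rose by 1.73 ± 0.22 (adjusted p = 6.9e-06). Inppl1, which encodes the lipid phosphatase SHIP2, fell (log2 fold change -1.26 ± 0.07, adjusted p = 1.2e-09). Among the kinases 2 of 6 rose and 1 fell (50% called, also below it). Mlst8, which encodes a subunit of both mTOR complexes, rose (log2 fold change 1.34 ± 0.10, adjusted p = 1.9e-08). The receptors and ligands had 3 of 4 tested lower and none higher (75% called), with Igf1r, the IGF-1 receptor, at -0.62 ± 0.16 and Igf2 at -2.20 ± 0.14.

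Downstream of AKT, 2 of 12 genes rose and 4 fell with NFIA at day 7 (50% called, against 55.5% of all genes). Tbc1d1, the close relative of Tbc1d4, was 51.9, 48.7 and 51.8 FPKM in control and 9.49, 6.73 and 9.77 in NFIA-expressing cells (log2 fold change -2.44 ± 0.12, adjusted p = 9.7e-11), so it fell where Tbc1d4 rose. Pde3b, the phosphodiesterase by which insulin lowers cAMP in adipocytes, rose from 5.13, 5.03 and 5.26 to 64.0, 51.4 and 48.8 (log2 fold change 3.17 ± 0.20, adjusted p = 2.2e-09). Slc2a4, the gene of GLUT4, was 1.91, 2.38 and 2.11 against 4.58, 5.62 and 5.32 (log2 fold change 0.98 ± 0.13, adjusted p = 8.5e-06), and in wild-type tissue 119, 172 and 58.8. Of 12 FOXO target genes 11 were called (91.7%), 6 higher and 5 lower. The antioxidant gene Cat (3.75) and Pdk4, which encodes a kinase that inhibits pyruvate dehydrogenase (2.41), were among the higher, and the muscle ubiquitin ligase genes Fbxo32 (-3.15) and Trim63 (-2.30) among the lower.

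Forskolin moved 21 of the 53 pathway genes in NFIA-expressing cells (39.6%, against 32.6% of all genes), 11 up and 10 down, and 5 of 53 in control cells (9.43%, against 3.97%). Pdk4 went from 87.5, 85.4 and 77.8 to 219.9, 239 and 252 FPKM in NFIA-expressing cells (log2 fold change 1.49 ± 0.08, adjusted p = 2.5e-09) and Txnip from 378, 435 and 361 to 986, 1258 and 1266 (log2 fold change 1.57 ± 0.15, adjusted p = 1.4e-06). Both are listed as FOXO targets, and their responses differed from those of control cells by 1.42 ± 0.11 and 1.94 ± 0.21 (adjusted p = 4.7e-07 and 1.3e-05). Slc2a4 fell (log2 fold change -0.55 ± 0.13, adjusted p = 0.0036) and Igf1r rose (log2 fold change 0.71 ± 0.16, adjusted p = 0.0029). Pde3b rose in control cells (log2 fold change 1.02 ± 0.20, adjusted p = 0.0067) and in NFIA-expressing cells (log2 fold change 1.24 ± 0.20, adjusted p = 0.00021), and the difference was not called (adjusted p = 0.68). The count in control cells was 2 without day 7 replicate 1 or 3 and 3 without day 7 replicate 2 or forskolin replicate 1 or 2. Pik3ca (log2 fold change -0.27 ± 0.16, adjusted p = 0.21) was not called in NFIA-expressing cells.

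At day 0, 13 of the 53 were called with NFIA (24.5%, against 21.2%), 5 higher and 8 lower, among them Trib3 (log2 fold change 1.76 ± 0.22, adjusted p = 2.4e-05), Pdk4 (log2 fold change -2.42 ± 0.08, adjusted p = 1.5e-11) and Fbxo32 (log2 fold change -1.63 ± 0.10, adjusted p = 8.5e-09). Pdk4 was thus lower with NFIA at day 0 and higher at day 7. In tissue 2 of 53 tested were called (3.77%, against 7.14% of all genes). Foxo4, another FOXO gene, was 11.1, 15.4 and 9.19 FPKM in wild-type and 31.1, 38.9 and 35.1 in NFIA-KO libraries (log2 fold change 1.51 ± 0.20, adjusted p = 0.018), and Pdk4 was 573, 700.2 and 449 against 1280.5, 1664 and 1020.2 (log2 fold change 1.20 ± 0.23, adjusted p = 0.036). The count was 0 without wild-type replicate 1 or 3 or NFIA-KO replicate 2, 1 without NFIA-KO replicate 1, 4 without NFIA-KO replicate 3 and 10 without wild-type replicate 2. Slc2a4 (log2 fold change -0.38 ± 0.40, adjusted p = 0.57), Igf1r (0.59 ± 0.31) and Pik3ca (0.59 ± 0.18) were not called there. With the muscle marker level as a term in the fit, 0 of the 53 were called, where 1 gene of all was.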

How the data were processed

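PolyA RNA had been made into stranded libraries, per the labels' protocols, and the tables the authors deposited give FPKM per gene, which the submitters' processing notes trace to TopHat and Cufflinks with the mm9 genome. The sources used here state no program version, annotation or read total, so depth and counting error are unknown. FPKM depends on every other gene of a library. The entry mmu-mir-703 alone held 3.09% to 33.5% of the FPKM sum in C2C12 libraries. In replicates 1, 2 and 3 of NFIA with forskolin it held 3.09%, 23.8% and 19.7%. Scaling by quantiles and by median-of-ratios was run as an alternative.

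Of 37305 rows, 264 of the same symbol at overlapping loci were summed into another, leaving 37041. The mm9 spans printed for the members are the deposited loci. Those of Insr, Irs1, Irs2, Pik3r1 and Foxo1 are shared with another entry, so they need not be the bounds of the gene itself. Apart from Gm9747 at the Irs1 locus, these other entries measured at most 0.61 FPKM. The members and lists were chosen with earlier results of these data known. Values were compared as log2(FPKM + 1), with a pseudocount of 1, by limma 3.58.1 in R 4.3.3 (moderated two-sided test, variance trend), in 1 fit of 18 C2C12 libraries and 1 of 6 tissue libraries. Genes with at least 1 FPKM in at least 3 libraries were tested, and p-values were adjusted by Benjamini-Hochberg over all of them. A value after ± is the standard error of a log2 fold change unless marked SD. The fits were tested on simulated data. C2C12 libraries without a number in the title are called replicate 1, which is only a name.

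The text names all 9 members, Slc2a4, Igf1r and Pik3ca, and of each pathway list at most 4 called genes with the largest change at a mean of at least 5 FPKM, and some genes of these lists are not reported here. Marker lists covered 8 cell types. The alternatives changed the pseudocount (0.1), kept low genes, scaled libraries by quantiles or by median-of-ratios, fitted only the groups compared, added a replicate block, used numbered libraries only or left out each library in turn. Added after the data were seen were the header date or the muscle marker level as a term, and Irs1 summed with Gm9747. Motifs were searched in RefSeq promoter windows (GRCm38.p6), in which 8 of 9 members were found by symbol.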

Additional observations from a re-analysis of the deposited data

Results flagged for a closer look

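The NFIA effect differed between day 7 and day 0, by the interaction term of the limma fit, in Tbc1d4 (2.27 ± 0.29 log2 units), Pik3r1 (1.76 ± 0.30), Irs1 (1.65 ± 0.13), Irs2 (1.50 ± 0.24), Insr (1.29 ± 0.23), Akt2 (0.75 ± 0.19) and Foxo1 (0.38 ± 0.13), with adjusted p of 1.3e-05, 0.00019, 7.9e-08, 0.00013, 0.00030, 0.0051 and 0.029. The Foxo1 term was called in 13 of 21 alternatives. The Irs1 term joins effects of opposite sign, -0.82 at day 0 and 0.83 at day 7.

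The forskolin response differed between NFIA-expressing and control cells in Irs2 (3.13 ± 0.24), Foxo3 (0.81 ± 0.10), Irs1 (0.41 ± 0.13) and Pik3r1 (-0.98 ± 0.30), with adjusted p of 4.1e-07, 4.2e-05, 0.040 and 0.032. The Irs1 term was called in 8 of 21 alternatives and was 0.06 (adjusted p = 0.90) with Gm9747 added to Irs1, and the Pik3r1 term was called in 11 of 21. Both sets of terms share the libraries of day 7 without forskolin.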

How the results depend on the processing

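Of 57 called values of the 9 members over the 10 comparisons, 42 kept direction and call under every alternative run, and 15 lost the call under at least 1, each named beside its result. Counts of members called moved by more than 1.5 times in these cases. For NFIA at day 0 the count of 5 was 2 with only the groups compared. For control cells over time the count of 5 was 8 with the replicate block or the header date as a term. For forskolin in control cells the count of 1 was 2 with the block or the date and 0 with only the groups compared (limma; 1632 genes of all in that fit had an unadjusted p under 0.05). For the difference in forskolin response the count of 4 was 2 with no expression filter or median-of-ratios rescaling. In tissue the count of 2 was 0 with no expression filter or the muscle marker term, where 40 and 1 genes of all were called in place of 973. With 1 library left out the counts of members ran from 3 to 5 for NFIA at day 0, from 4 to 6 for forskolin in NFIA-expressing cells, from 2 to 4 for the difference in forskolin response and from 0 to 3 in tissue. Counts of pathway genes moved from 13 to 22 with the block and 24 with the date for NFIA at day 0, from 5 to 8 with either and to 2 with only the groups compared for forskolin in control cells, and from 2 to 0 in tissue with no expression filter or the muscle term. The cause of these shifts was not tested, and the fit of only the groups compared has fewer libraries.

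Direction changed only in values that were not called. Insr with NFIA at day 0 was -0.016 with quantile normalization and -0.0016 with median-of-ratios rescaling, and -0.10 to 0.13 with 1 library left out. Akt1 in the NFIA by day difference was 0.052, 0.072 and 0.11 with quantile normalization, median-of-ratios rescaling and the numbered libraries, and -0.050 to 0.062 with 1 left out. Akt2 with forskolin in control cells was -0.029 in the numbered libraries and -0.037 to 0.070 with 1 left out. With 1 left out, Insr over time in control cells ran from -0.18 to 0.071, Akt2 in tissue from -0.45 to 0.10, Foxo1 in tissue from -0.32 to 0.12 and the log2 ratio of Foxo3 to Foxo1 over time in control cells from -0.083 to 0.064.

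Titles number replicates 2 and 3 of the C2C12 groups and all tissue libraries, and nothing says that a number marks a shared culture, litter or day. Deviations of same-numbered libraries from their group means correlated by 0.081 to 0.43 over 7 C2C12 comparisons, and in 5 of these every one of the 3 pairs was over 0.1. The exceptions had a lowest r of 0.093 (NFIA at day 7) and 0.081 (forskolin in control cells). In tissue r ran from -0.009 to 0.14. The replicate 1 pairs of the C2C12 groups carry no number in the titles and share the earlier date, which leaves 2 numbered pairs per comparison, and not every library correlated best with its own number, so the numbers were not taken to pair the libraries. The replicate block ended 0 calls of members and brought 10 values past the threshold. Their adjusted p with the block was 0.024 for Pik3r1 and 0.030 for Akt1 with NFIA at day 0, 0.0036, 0.015 and 0.028 for Irs2, Pik3r1 and Tbc1d4 over time in control cells and 0.038 for Irs1 over time in NFIA-expressing cells. It was 0.029 for Foxo1 with forskolin in control cells, 0.038 for Foxo3 in the NFIA by day difference, and 0.0075 and 0.0055 for Insr and Tbc1d4 in the difference of forskolin responses. Without read totals, no limit from depth can be given for low values such as Irs2 in control cells.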
